A study of Secale cereale x Triticum turgidum subsp. durum with 39 samples.

Results

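G-6-PDH is a wheat control transcript of the Affymetrix Wheat Genome Array, named for glucose-6-phosphate dehydrogenase. The array measures it with 3 probe sets, which lie in the 3' segment, the middle (M) segment and the 5' segment of the transcript. These 3 were taken by name from the 61290 probe sets of the deposited table, and all 3 are described over 39 arrays. The gene was chosen by its measured levels in anthers, high at the early stages and low at the late ones. Every difference that involves anthers is therefore given as a description, with no test. The suffix of the probe set names marks probes that match several similar transcripts. The values therefore do not separate similar copies of the gene, whether of wheat or rye origin, and whether they come from a cytosolic or a plastid form is not given in the sources used here.

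RNA came from triticale, the cereal hybrid of wheat and rye, cultivar Alta, grown untreated in a controlled chamber. Anthers, ovaries and stigmas were each collected at 4 stages named for the pollen in the anther: TET (tetrads), UNM (microspores with a single nucleus), BCP (bicellular pollen) and TCP (tricellular pollen). The remaining group of the 13 was MPG, mature pollen grains, and each group held 3 replicates that the labels call biological. Whether the replicates came from separate plants, and how many plants were pooled, is not given in the sources used here, so p-values measure the spread between these samples. Anthers, ovaries and stigmas are whole organs, so fewer cells of a type and less RNA per cell cannot be told apart in them.

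Glucose-6-phosphate dehydrogenase opens the oxidative branch of the pentose phosphate pathway. It oxidises glucose 6-phosphate and reduces NADP+ to NADPH, the reducing power used in biosynthesis and in defence against oxidants, and the pathway also supplies ribose for nucleotides. Anthers hold the sporogenous cells and their nurse tissue, the tapetum, which degenerates while pollen matures, so late anthers consist increasingly of pollen.

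Kits changed with the stage. TET samples were labelled from 0.05 to 0.1 µg of RNA with repeated amplification, UNM and BCP samples from 1 µg with the 3' IVT Express kit, and those of TCP and MPG from 5 µg with a single round of amplification. The extraction method changed at the same points. Stage and kit therefore cannot be told apart in the step between TET and UNM or in the step between BCP and TCP. Replicates correlated with r of 0.978 to 0.996 over probe sets, and each of the 39 arrays was closest to an array of its own group. Levels are log2 signals as the authors deposited them, and group means under 6 are called dim. With arrays, the number of replicates limits the precision.

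In anthers the 3' segment had its highest level of all 13 groups at TET and nearly its lowest at TCP. The 3 anther arrays read 10.15, 10.35 and 10.72 at TET, and 9.57, 9.69 and 10.14 at UNM. They read 7.44, 8.01 and 8.23 at BCP, and 4.99, 5.22 and 5.36 at TCP. No array of a stage overlapped with an array of the next, although the gap between the lowest TET and the highest UNM array was small. The means were 10.41 ± 0.29, 9.80 ± 0.30, 7.89 ± 0.41 and 5.19 ± 0.19 (SD, n = 3), and the successive differences of the means were -0.61, -1.91 and -2.70. Scaling on the hybridisation controls moved the first of these to -1.40 and the second to -1.36. The step from UNM to BCP, made with the same kits on both sides, amounted to 3.75-fold in the deposited values. The step from BCP to TCP, at 6.51-fold, went from a clear signal to a dim one. Of all probe sets, 28.3%, 18.4% and 25.6% were likewise lower without overlap at these steps, which is printed for scale alone because the gene was chosen for them.

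**Figure D1:**
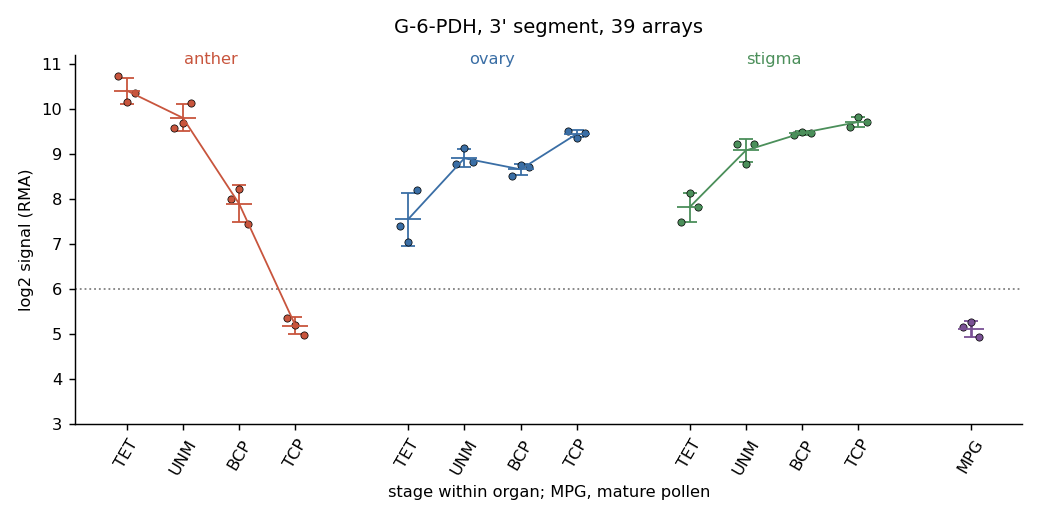
Log2 signal of the G-6-PDH 3' segment (vertical axis) by stage within each organ and in mature pollen; points are arrays, horizontal marks and bars are means and SDs (n = 3), and the dotted line marks the level of 6 below which means are called dim. Anther means run from 10.41 at TET to 5.19 at TCP, ovary means from 7.55 to 9.45 and stigma means from 7.82 to 9.71, and mature pollen stands at 5.12.

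From TET to TCP, across both changes of kits, the 3' segment ran the other way in ovaries and stigmas. In the step with unchanged kits, UNM to BCP, it differed by -0.25 in ovaries and 0.39 in stigmas, neither passing the test described below. The 3' segment read 7.05, 7.39 and 8.20 in ovaries at TET and 9.36, 9.47 and 9.51 at TCP. In stigmas it read 7.49, 7.83 and 8.13 at TET and 9.59, 9.72 and 9.82 at TCP. The anther level thus lay above both pistil organs at TET, by 2.86 log2 units (7.25-fold) over ovaries and by 2.59 (6.02-fold) over stigmas. At UNM the excess was 0.90 and 0.72, or 0.54 and 0.33 when arrays were scaled on the hybridisation controls. At BCP the anther mean was below both organs, with differences of -0.77 from ovaries and -1.57 from stigmas. At TCP the differences were -4.26 (19.1-fold lower) and -4.52 (23.0-fold lower). In all 8 of these comparisons within a stage, where kits were matched, the anther arrays did not overlap with those of the other organ. Of all probe sets, 16.0% at TET and 18.0% at UNM were higher in every anther array than in every ovary array, and 25.1% at BCP and 26.7% at TCP were lower in every one. Against stigmas the same shares were 15.8%, 18.1%, 24.0% and 25.7%, and nothing is read from them for a gene chosen by this pattern. In the 3' segment the crossing from an excess to a deficit lay between UNM and BCP for both pistil organs.

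Mature pollen was as low as late anthers. The 3' segment read 4.93, 5.16 and 5.26 in MPG, against 4.99, 5.22 and 5.36 in anther TCP, and these arrays overlapped. The MPG mean was 5.12 ± 0.17 (SD, n = 3), and its difference from anther TCP, -0.07, turned to 0.12 with arrays scaled on the brighter probe sets. The differences from the pistil organs of the same kits, with no anther array in them, were tested with limma over all 61204 probe sets. Late anthers consist increasingly of pollen, so these tests are not independent of a choice by low levels in late anthers. Calls needed an adjusted p (Benjamini-Hochberg) below 0.05 together with a difference of 1 log2 unit or more. The 3' segment was 20.1-fold lower in MPG than in ovary TCP (log2 difference -4.33, SE 0.21, limma adjusted p = 3.02e-19). It was 24.1-fold lower than in stigma TCP (-4.59, SE 0.21, limma adjusted p = 6.04e-20). Since MPG was dim, these are folds of signal rather than measured ratios of transcripts. All 3 segments were called lower in both comparisons, where 21.9% and 20.7% of all probe sets were called lower.

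Ordered by mean, the 3' segment placed anther TET first, followed by anther UNM (9.80), stigma TCP (9.71), stigma BCP (9.47) and ovary TCP (9.45). Next came stigma UNM (9.08), ovary UNM (8.90), ovary BCP (8.66), anther BCP (7.89), stigma TET (7.82) and ovary TET (7.55), and anther TCP and MPG closed the order. Of the 12 pairs of neighbours in that order, 6 had overlapping arrays: anther UNM and stigma TCP, stigma BCP and ovary TCP, stigma UNM and ovary UNM, anther BCP and stigma TET, stigma TET and ovary TET, and anther TCP and MPG. The largest step between neighbours, 2.36, separated ovary TET from anther TCP. Where neighbours were labelled with different kits, as these were, group and kit cannot be told apart. The span of the 13 means was 5.29 log2 units, wider than that of 93.8% of all probe sets. That share is given for scale alone, because the gene was chosen for high early and low late anther levels.

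The M segment kept most of this order, while the 5' segment was dim in 11 of the 13 groups. In anthers the M segment had means of 8.03 ± 0.29, 7.33 ± 0.08, 6.04 ± 0.55 and 4.46 ± 0.25 (SD, n = 3) from TET to TCP, so it was lower at each stage, as in the 3' segment. Its anther mean differed from ovaries by 2.73 at TET, 0.52 at UNM, -0.43 at BCP and -4.24 at TCP, with overlapping arrays at BCP. Its differences from stigmas were 2.53, 0.30, -1.81 and -4.35 with no overlap, although the one at UNM turned to -0.10 with scaling on the hybridisation controls. The 5' segment stood at 5.85 ± 0.33 (SD, n = 3) in anthers at TET and at 4.40, 3.98 and 4.16 at the later stages. At TET its anther arrays of 5.50, 5.89 and 6.16 still lay above every ovary array (4.13 to 4.56) and every stigma array (3.94 to 4.42). At UNM the 5' segment did not separate anthers from the pistil organs, and all 3 groups were dim. Mature pollen was the lowest group in the M segment, with arrays of 3.29, 3.82 and 4.03 below the 4.28, 4.35 and 4.75 of anther TCP, both groups being dim; 19.1% of all probe sets were lower in MPG without overlap.

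**Figure D2:**
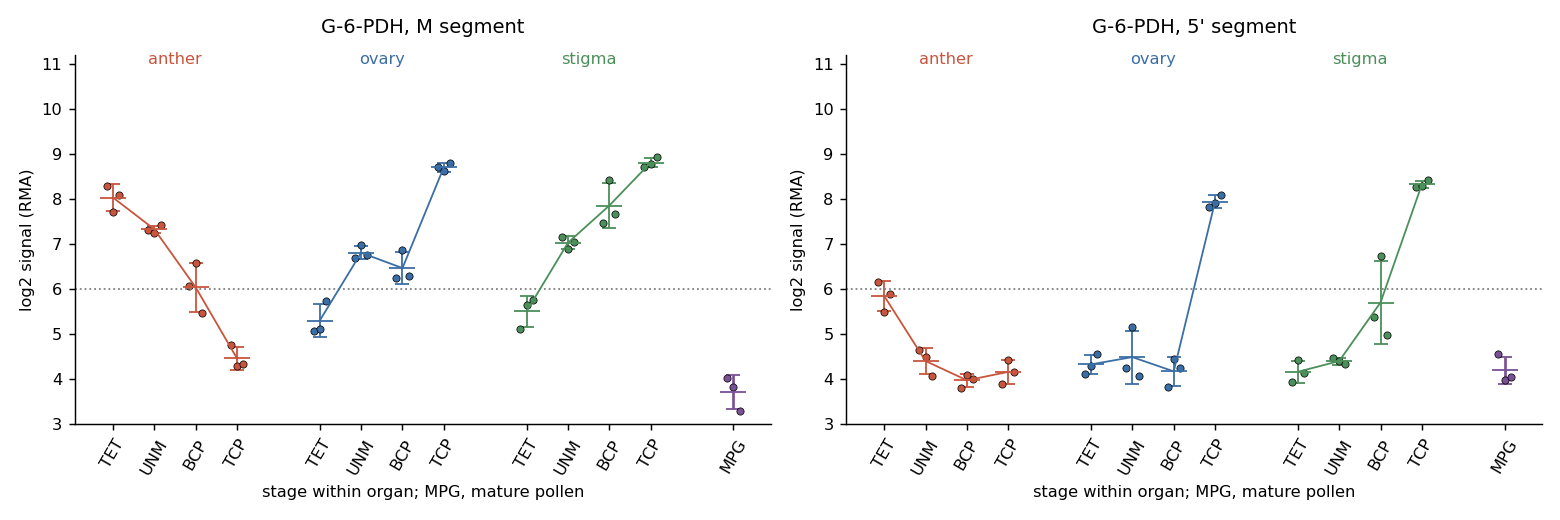
Log2 signal of the G-6-PDH M segment (left) and 5' segment (right) by stage within each organ and in mature pollen; points are arrays, marks and bars are means and SDs (n = 3), and the dotted line marks the dim level of 6. The M segment runs from 8.03 to 4.46 in anthers, and the 5' segment is above 6 on average only in ovary TCP (7.94) and stigma TCP (8.32).

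Over the 13 group means the 3' and M segments correlated with r = 0.925, the M and 5' segments with 0.768, and the 3' and 5' segments with 0.515. These correlations describe probe sets read on the same arrays. Within the 6 UNM and BCP groups, which share kits, the corresponding values were 0.899, 0.868 and 0.582. Within the 4 TCP and MPG groups, which also share kits, they were 0.995, 0.992 and 0.9995. There anther TCP and MPG were dim in every segment and the pistil organs were not. The highest group also differed by segment: anther TET led in the 3' segment, and stigma TCP led in the M segment (8.81 ± 0.11, SD, n = 3) and in the 5' segment (8.32 ± 0.08, SD, n = 3).

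The comparisons that leave anthers out were tested for all 3 segments. Between stigmas and ovaries the M and 5' segments were called at BCP, and the 3' segment was not. No segment was called at the other 3 stages. At BCP the 3' segment read 9.43, 9.47 and 9.50 in stigmas and 8.52, 8.70 and 8.76 in ovaries, with no overlap. The difference was 0.81 (SE 0.21, limma adjusted p = 0.00482, 95% interval 0.37 to 1.24), past the p threshold but short of the minimum difference of 1. The M segment was 2.61-fold higher in stigmas (1.39, SE 0.24, limma adjusted p = 3.35e-05). The 5' segment was 2.88-fold higher (1.53, SE 0.28, limma adjusted p = 7.17e-05), with both means dim. The calls of 2 of 3 segments stood against a background of 3.05% of probe sets called higher in stigmas at BCP.

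Stigma BCP replicate 2 was the highest of its group in the M segment, at 8.42 against 7.47 and 7.67, and in the 5' segment, at 6.73 against 5.38 and 4.99. In the 3' segment the same array, at 9.50, lay within 0.07 of the other arrays of its group. Among the other wheat controls that array was the highest of its group for 6 of 7 probe sets of 5' segments, 7 of 8 of M segments and 0 of 6 of 3' segments. The largest gap was in the M segment of Sucsyn, the sucrose synthase control, which read 9.51 on that array against 7.89 and 7.78. What this had to do with the G-6-PDH values was not tested. Without that array the difference between stigmas and ovaries at BCP was 1.10 in the M segment and 1.01 in the 5' segment, and both calls held.

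At the other 3 stages stigmas and ovaries were not distinguished by limma in any segment, at the adjusted threshold or at an unadjusted p under 0.05. In the 3' segment the difference was 0.27 at TET (95% interval -0.17 to 0.70), 0.17 at UNM (-0.26 to 0.61) and 0.26 at TCP (-0.17 to 0.70). These intervals leave out a difference of 1 either way. At TCP the stigma arrays nevertheless lay above all ovary arrays in the 3' segment (9.59 to 9.82 against 9.36 to 9.51) and in the 5' segment (8.26 to 8.42 against 7.82 to 8.10), a separation that 25.5% of all probe sets had. Of all probe sets, 1.82% were called either way at TET, 3.09% at UNM and 12.7% at TCP.

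**Figure D3:**
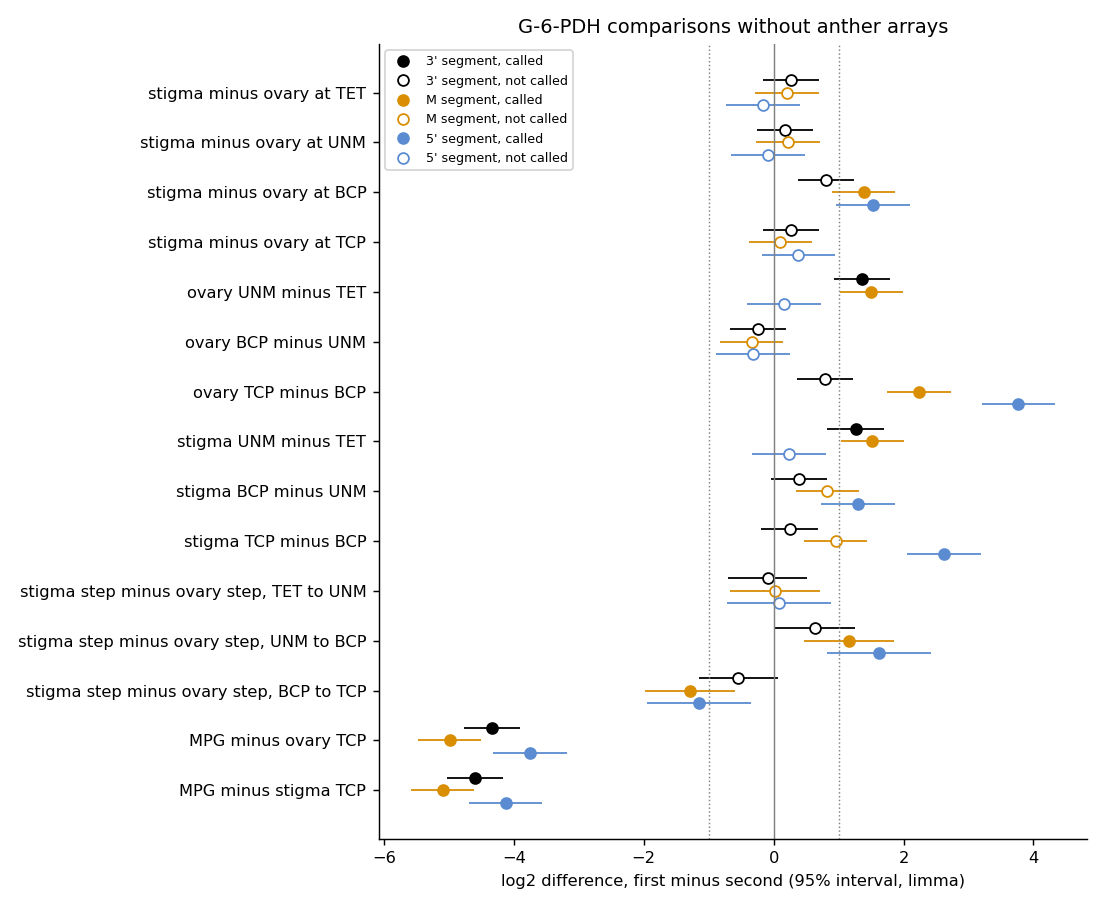
Log2 differences (horizontal axis, first group minus second) with 95% intervals from limma for the 15 comparisons that use no anther array, for the 3' (black), M (orange) and 5' (blue) segments; filled points were called, open points were not, and dotted lines mark a difference of 1. The MPG comparisons lie between -3.75 and -5.09, and the step from BCP to TCP in ovaries spreads from 0.79 in the 3' segment to 3.77 in the 5' segment.

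In the step from UNM to BCP, with unchanged kits, no segment of the transcript was called in ovaries. The 3' segment read 8.77, 8.81 and 9.13 at UNM and 8.52, 8.70 and 8.76 at BCP in ovaries. Every BCP array thus lay just below every UNM array, as for 11.9% of all probe sets. Its difference was -0.25 (95% interval -0.68 to 0.19), those of the M and 5' segments were -0.34 and -0.32, and 0 of 3 segments had an unadjusted limma p under 0.05. For that step 1.40% of probe sets were called either way. In stigmas the 3' segment stood at 9.08 ± 0.25 at UNM and 9.47 ± 0.03 at BCP (SD, n = 3), a difference of 0.39 (95% interval -0.04 to 0.82, limma adjusted p = 0.313). The stigma M segment differed by 0.83 (limma adjusted p = 0.0179), under the minimum of 1. It was called when arrays were scaled on the hybridisation controls (1.23) and without stigma BCP replicate 1 (1.02), and differed by 0.54 without stigma BCP replicate 2. The stigma 5' segment was called higher at BCP, by 1.30 (SE 0.28, limma adjusted p = 0.00115), against 1.89% of probe sets. That call ended without stigma BCP replicate 2 (0.78) and in a fit of the compared groups alone (adjusted p = 0.0788).

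The difference between the organs in this step was tested as an interaction. The stigma step exceeded the ovary step by 0.63 in the 3' segment (SE 0.30, limma adjusted p = 0.271), by 1.16 in the M segment (SE 0.34, adjusted p = 0.0354) and by 1.62 in the 5' segment (SE 0.39, adjusted p = 0.00995). The M and 5' segments were called, against 1.94% of all probe sets called higher. Both calls ended without stigma BCP replicate 2, where the values were 0.88 and 1.10, and in a fit of the compared groups alone (adjusted p of 0.0517 and 0.101). The M call also ended without any of 6 other arrays, and the 5' call without ovary UNM replicate 2.

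From TET to UNM the transcript rose in both pistil organs, across a change of kits. The 3' segment was 2.56-fold higher at UNM in ovaries (1.35, SE 0.21, limma adjusted p = 3.77e-06) and 2.40-fold higher in stigmas (1.26, SE 0.21, limma adjusted p = 1.17e-05). No TET array overlapped with a UNM array in either organ. The share of all probe sets separated in this way is not given here, so nothing is read from the separation. The M segment was 2.84-fold and 2.87-fold higher, from dim means of 5.30 and 5.51, while the 5' segment was dim throughout and differed by 0.16 and 0.24. Of all probe sets, 7.18% were called higher in ovaries and 7.34% in stigmas. When arrays were scaled on the hybridisation controls, the 3' differences were 0.86 in ovaries and 0.45 in stigmas, and neither was called. The M segment was then still called in ovaries and not in stigmas (0.71). The steps of the 2 organs did not differ detectably, with an interaction of -0.09 in the 3' segment (95% interval -0.71 to 0.52). For that interaction 0 of 3 segments had an unadjusted limma p under 0.05, and 1.43% of probe sets were called either way.

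From BCP to TCP, across the other change of kits, the 3 segments of the transcript moved by unequal amounts in the pistil organs. In ovaries the 3' segment differed by 0.79 (SE 0.21, limma adjusted p = 0.00464), short of the minimum of 1. The ovary M segment rose 4.72-fold (2.24, SE 0.24, limma adjusted p = 5.36e-09) from 6.47 to 8.71. The ovary 5' segment rose 13.6-fold (3.77, SE 0.28, limma adjusted p = 1.52e-12), from arrays of 3.82, 4.25 and 4.45 to arrays of 7.82, 7.91 and 8.10. In stigmas the differences were 0.25 in the 3' segment (adjusted p = 0.437), 0.96 in the M segment (adjusted p = 0.00187, not called) and 2.62 in the 5' segment (SE 0.28, adjusted p = 1.95e-09). The stigma M segment was called without stigma BCP replicate 2 (1.24), without stigma TCP replicate 1 (adjusted p = 0.0048) and when the brighter probe sets set the scale (1.02). The background was 4.56% of probe sets called higher in ovaries and 5.56% in stigmas.

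The Sucsyn control had the same order of segments by size of change at this step. In ovaries its 3' segment changed from 12.48 to 12.62, its M segment from 7.92 to 10.92 and its 5' segment from 3.98 to 8.03. In stigmas the changes were 0.39, 2.61 and 3.42. Over all other wheat controls the 5' segment was higher at TCP for 7 of 7 probe sets in ovaries (median change 0.81, range 0.09 to 4.05) and for 6 of 7 in stigmas (median 0.28, range -0.12 to 3.42). The 3' segment was higher for 3 of 6 in each organ, with medians of 0.05 and 0.00. The 18SrRNA control read 13.16 at BCP and 5.38 at TCP in ovaries, and 13.15 and 5.91 in stigmas. Stage and kit cannot be told apart here, and the part of labelling in the 5' and M changes of G-6-PDH was not tested.

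**Figure D4:**
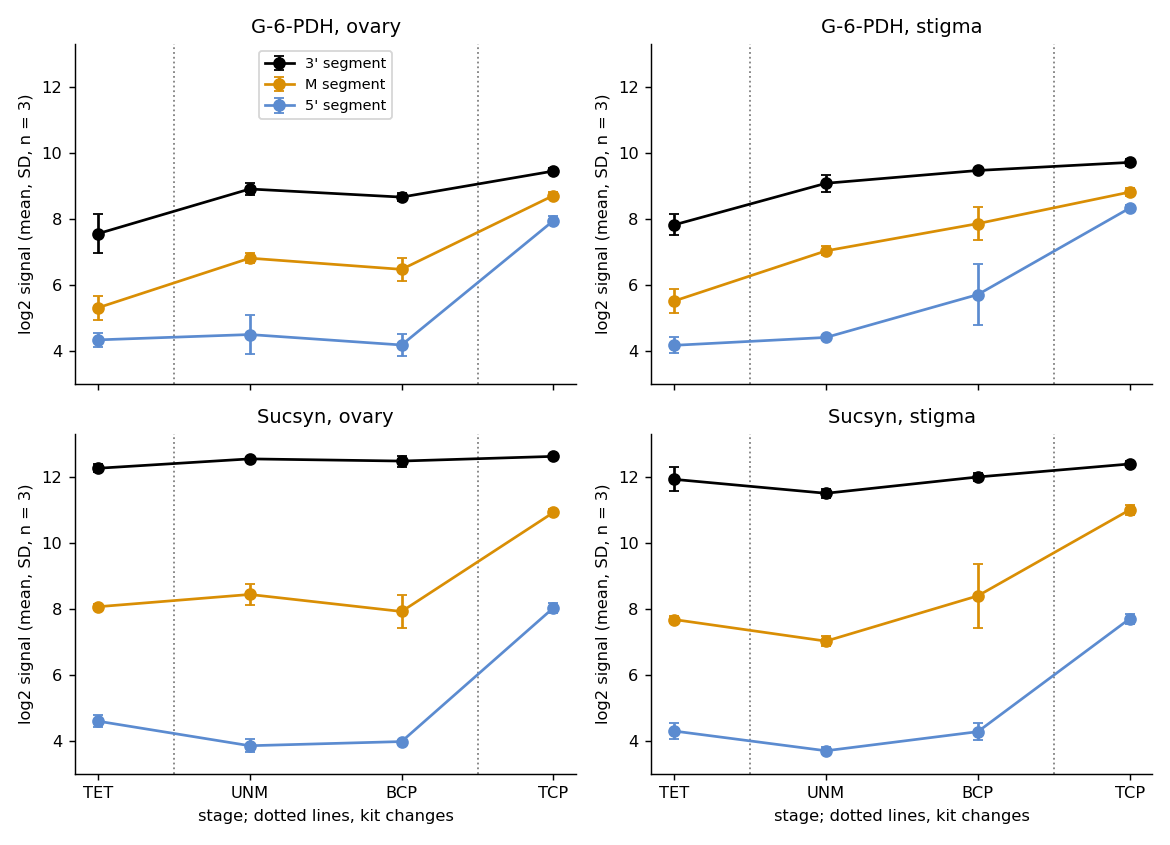
Log2 signal (vertical axis, mean and SD, n = 3) of the 3', M and 5' segments of G-6-PDH (top) and Sucsyn (bottom) in ovaries and stigmas by stage; dotted lines mark the changes of kits. In both transcripts the 5' and M segments are higher at TCP than at BCP, while the 3' segments differ by 0.79 or less between these stages.

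The BCP to TCP steps of the pistil organs differed in the M segment, where the stigma step was the smaller (interaction -1.28, SE 0.34, limma adjusted p = 0.00728). They also differed in the 5' segment (-1.15, SE 0.39, limma adjusted p = 0.0475). In the 3' segment the interaction was -0.54 (SE 0.30, limma adjusted p = 0.299). The background was 4.38% of probe sets called lower. Without stigma BCP replicate 2 neither call held. The M difference was then smaller in size than 1 (-0.999, limma adjusted p = 0.0459). The 5' difference missed both thresholds (-0.63, limma adjusted p = 0.28). The 5' call also ended without any of 8 other arrays, with a variance trend (adjusted p = 0.0537) and in a fit of the compared groups alone (adjusted p = 0.107).

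Few genes of sugar metabolism could be set beside G-6-PDH. Of 48 symbols on a list of sugar and starch metabolism, the annotation and the control names gave 5 other genes: Sucsyn, FBP (a fructose bisphosphatase), GAPN (non-phosphorylating glyceraldehyde-3-phosphate dehydrogenase, another source of NADPH), gapdh and PFK (phosphofructokinase). No other gene of the pentose phosphate pathway was named. In anthers none of the 5 had its highest stage mean at TET with a clear signal, as G-6-PDH did. As G-6-PDH was chosen for its anther pattern, nothing is read from this contrast or from the anther differences that follow. Sucsyn had means of 9.05, 12.36, 9.92 and 7.38 from TET to TCP, FBP 6.77, 9.94, 8.75 and 7.35, and GAPN 5.40, 9.72, 9.12 and 6.16, all highest at UNM. The gapdh control, represented by a 5' probe set, was highest at TCP, at 7.86 from 5.09 at TET. From BCP to TCP, across a change of kits, this probe set changed by 2.22 in anthers. The other gapdh probe sets changed by 0.25 (3'), 0.46 and 0.76 (M) and 1.52 (5') there. PFK was dim throughout (2.93 to 3.67). From TET to TCP the difference was -5.22 for the G-6-PDH 3' segment, -1.66 for Sucsyn, read here by its 3' probe set, and 0.58 for FBP. The other Sucsyn segments went differently in anthers. The M segment changed by 2.93, -1.69 and 0.57 at the successive steps, and the 5' segment by -0.45, -0.12 and 0.84. CAT1, a catalase and the 1 named gene of a redox list, had anther means of 6.91, 8.14, 7.32 and 5.72.

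In MPG against the TCP pistil organs, where G-6-PDH was lower, Sucsyn, read by its 3' probe set alone, was lower too. Its log2 differences were -6.19 from ovaries (SE 0.22, limma adjusted p = 4.16e-23) and -5.96 from stigmas. The gapdh control, read here by the 5' probe set alone, was higher, by 2.21 and 2.47. Of the 5 genes, 1 was called higher and 1 lower against ovaries, with a median difference of -0.51 beside 0.33 over all probe sets. These counts stood against 20.1% of all probe sets called higher and 21.9% called lower. Against stigmas 2 were higher (GAPN and gapdh) and 2 lower (FBP and Sucsyn), with a median of -0.05 beside 0.30, against 17.9% of all probe sets called higher and 20.7% called lower. At BCP, where 2 G-6-PDH segments were higher in stigmas than in ovaries, none of the 5 was called by limma (median -0.48, beside 0.02 over all probe sets). From TET to UNM in ovaries and stigmas, where G-6-PDH rose, none was called either (medians 0.35 and 0.32, beside -0.07 in both organs). FBP was called higher at BCP than at UNM in ovaries (1.37) and in stigmas (1.30), a step at which the G-6-PDH 3' segment was not called. At that step 0.833% of all probe sets were called higher in ovaries and 1.89% in stigmas.

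Likeness to the 3' segment was described by the Pearson correlation of the 13 group means, which share arrays and kit changes, with no test. Over the 61201 other probe sets the median was -0.285, and 81 probe sets (0.132%) were above 0.9. The most alike was a probe set that the annotation lists as LOC542778, a locus number without a description, with r = 0.994 over the 13 groups and 0.994 over the 9 groups without TCP and MPG. Its means in anthers were 11.23, 10.77, 8.80 and 6.18 from TET to TCP, in ovaries 8.61, 9.96, 9.70 and 10.73, in stigmas 8.67, 10.11, 10.61 and 11.06, and in MPG 5.43. It thus had the same early anther high and late anther low, and higher late than early levels in the pistil organs. Its name carries the suffix that marks probes matching several similar transcripts. Whether it reads the same transcript as the G-6-PDH probe sets was not tested. Next was the probe set of LOC542857 (r = 0.970), with anther means of 11.57, 11.33, 10.30 and 7.07 and 7.28 in MPG. The most opposed were a pair of probe sets without a name, of which the first (r = -0.973) was dim in all 13 groups and the other (r = -0.968) was dim except in anther TCP (6.93) and MPG (6.90).

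Among the 20 other genes that could be named, SAHH, the adenosylhomocysteinase of the methylation cycle, came closest (r = 0.799), followed by CYP86-TA, a cytochrome P450 (0.714), and Sucsyn (0.703). Without the TCP and MPG groups these correlations were 0.261, 0.361 and -0.286 (over the 9 other groups). Farthest were actin (-0.873), THI1.1 (-0.798), which was dim in all groups, and gapdh, read by a 5' probe set (-0.758). The correlation of gapdh turned to 0.230 without TCP and MPG. Actin, a cytoskeletal gene, was at 13.98 in anther TCP and 13.61 in MPG, the 2 groups where G-6-PDH was lowest.

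**Figure D5:**
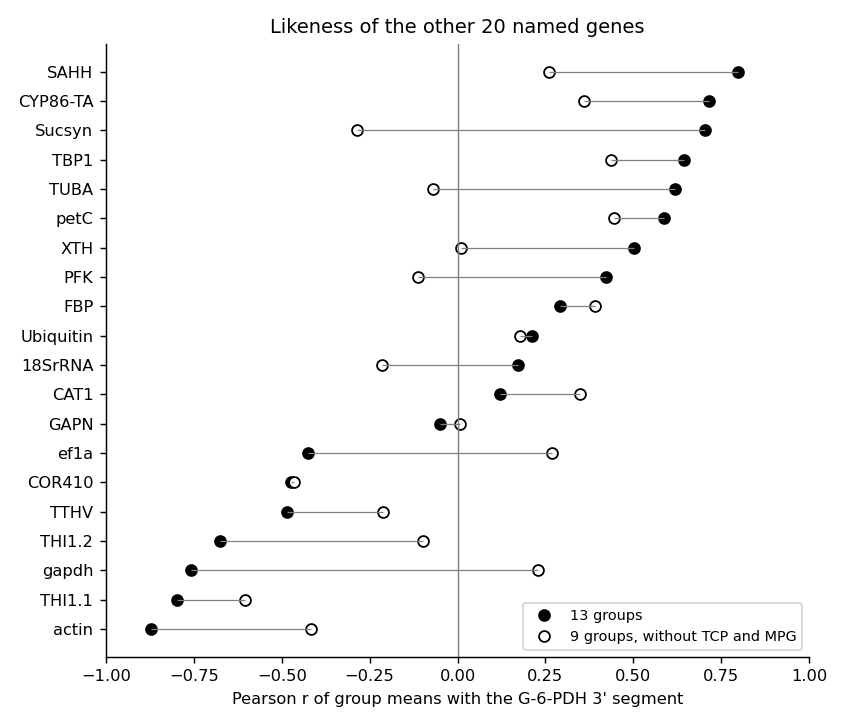
Pearson correlation (horizontal axis) of the group means of the 20 other named genes with the G-6-PDH 3' segment, over all 13 groups (filled) and over the 9 groups without TCP and MPG (open). SAHH is highest over 13 groups at 0.799 and actin lowest at -0.873, and several genes lie near 0 or change sign without TCP and MPG.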

How the data were processed

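RNA of 39 triticale samples was measured on the Affymetrix Wheat Genome Array. The deposited values are log2 signals, which the submitters' processing notes credit to RMA as run by the authors; no source used here gives its version or says whether the 39 arrays were normalised in a single run. RMA forces arrays to a common distribution, so dim signals can shift where few transcripts are abundant. Controls that are not wheat genes (86 probe sets) were dropped. The remaining 61204 probe sets were fitted in R 4.3.3 with limma 3.58.1 (a mean per group over all 39 arrays, contrasts, eBayes, 26 residual and 7.49 prior degrees of freedom), with Benjamini-Hochberg adjustment per comparison. This fit was tested on simulated data. Names came from a platform annotation of 13 usable symbols and from 8 control names; a gene is represented by its probe set with the highest mean. The text names the 3 most and 3 least alike genes, at most 2 probe sets per direction, and members of fixed lists. The gene, lists and tests were chosen with earlier results of these data known. Stage and organ groups came from sample titles. Same-numbered replicates correlated with r of -0.134 to 0.436 in deviations from group means, over 0.1 throughout in 0 of 12 pairs of groups, so no pairing was used. Alternatives were 2 scalings, a filter on dim probe sets, other fits and thresholds, a replicate block and leaving out each array.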

Additional observations from a re-analysis of the deposited data

Results flagged for a closer look

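The steps of stigmas and ovaries differed by a test of the difference itself in the M and 5' segments. From UNM to BCP the stigma step was larger by 1.16 in the M segment and by 1.62 in the 5' segment, and from BCP to TCP it was smaller, with values of -1.28 and -1.15. None of these 4 calls held without stigma BCP replicate 2, where the values were 0.88, 1.10, -0.999 and -0.63 in the same order. In the 3' segment every stigma array was higher and every ovary array lower at BCP than at UNM, and the difference of the steps, 0.63, did not pass the limma test. Of all probe sets, 11.9% were likewise lower in every ovary array, and the share for stigmas is not given here.

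Steps of anthers against the pistil organs were flagged because all arrays of anthers moved down and all arrays of the other organ moved up; these differences were not tested, since the gene was chosen for its anther pattern. In the 3' segment, the anther step minus the ovary step was -1.96 (TET to UNM) and -3.49 (BCP to TCP step). The anther step minus the stigma step was -1.87 from TET to UNM, -2.30 from UNM to BCP and -2.95 from BCP to TCP. In the M segment the values against ovaries were -2.21 (TET to UNM) and -3.82 (BCP to TCP step). Against stigmas they were -2.23, -2.12 and -2.53 at the successive steps.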

How the results depend on the processing

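When arrays were scaled on the hybridisation controls, the 3' segment lost its call from TET to UNM in ovaries (0.86) and stigmas (0.45) and gained it from BCP to TCP in ovaries (1.05), and ovary BCP minus UNM turned to 0.073. Anther differences moved to 0.54 against ovaries at UNM, -4.91 against ovaries at TCP, and 2.17, 0.33 and -5.06 against stigmas at TET, UNM and TCP. Anther steps moved to -1.40 from TET to UNM and -1.36 from UNM to BCP, and MPG minus anther TCP to -0.35. Signs that turned under this scaling were, for the 5' segment, stigma minus ovary at TET (0.19), ovary UNM minus TET (-0.33), ovary BCP minus UNM (0.0020), stigma UNM minus TET (-0.57), the TET to UNM interaction (-0.24), anther minus stigma at UNM (-0.40), anther BCP minus UNM (0.12), anther TCP minus BCP (-0.078) and MPG minus anther TCP (-0.24). For the M segment they were stigma minus ovary at TCP (-0.016), the TET to UNM interaction (-0.30) and anther minus stigma at UNM (-0.10). Scaling on the brighter probe sets gave -3.93 and -4.27 for anthers against ovaries and stigmas at TCP, 0.12 for MPG minus anther TCP, and turned the 5' segment in ovary UNM minus TET (-0.062) and anther minus ovary at UNM (0.022). Array weights turned stigma minus ovary at UNM in the 5' segment (0.073) and the TET to UNM interaction in the M segment (-0.026). With no minimum difference, stigma minus ovary at BCP (0.81) and ovary TCP minus BCP (0.79) were called. The correlations of Sucsyn (-0.286) and gapdh (0.230) turned without TCP and MPG. The cause of these changes was not tested.

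Leaving out an array turned the sign of the TET to UNM interaction (-0.42 to 0.16 in the 3' segment, -0.14 to 0.41 in the 5' segment, -0.20 to 0.14 in the M segment) and of MPG minus anther TCP (-0.17 to 0.022, and -0.14 to 0.16 in the 5' segment). In the 5' segment it also turned anther minus ovary at UNM (-0.30 to 0.25), anther minus stigma at UNM (-0.12 to 0.17), stigma minus ovary at UNM (-0.30 to 0.25), ovary BCP minus UNM (-0.53 to 0.018) and ovary UNM minus TET (-0.17 to 0.38). Replicate numbers did not pair the samples: 8 of 36 arrays correlated best with their own number. The replicate block changed none of the calls of the 3 segments (stigma minus ovary at BCP stayed at 0.81), and its count of called probe sets was 0.995 to 1.00 times the main count. The share called higher in MPG than in ovary TCP was 20.1%, and 42.0% and 4.17% under the brighter and hybridisation scalings.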
